A study of Bos taurus with 30 samples.

Results

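The regions described here are new 4-cell sites kept to morula, 1745 ATAC-seq regions of bovine 4-cell embryos. They overlapped regions backed by 2 or more replicates in 8-cell embryos and morula, and none such in GV oocytes or 2-cell embryos. A peak in at least 1 GV or 2-cell library was still found for 808 of them (46.3%). The 1745 regions were chosen by their peaks in untreated libraries. For each stage, peaks of its 3 replicates that overlapped by 1 bp or more were joined into regions, and only regions backed by 2 or more replicates were used. A 4-cell region was then a member if it overlapped no GV oocyte region and no 2-cell region, and overlapped both an 8-cell and a morula region. These 1745 regions, called maintained sites below, were 11.5% of all 15117 4-cell regions. The regions of all 10 conditions together, merged with each other, numbered 275403. Because the untreated lists from GV oocyte to morula selected the members, values in those libraries are given as a description and carry no test. The other 15 libraries did not enter the rule.

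The study followed accessible chromatin through bovine preimplantation development and asked which part of its remodelling needs transcription by the embryo. ATAC-seq uses a transposase that cuts and tags open DNA, and a peak is a stretch where tags pile up above what the surrounding sequence of that library holds. Each list of peaks came from 1 library, and each of 10 conditions had 3 replicates, which for oocytes and embryos came from separate collections. Pools of cells were used, so that a peak that is absent can stand for fewer open alleles or for fewer cells with the site open, and the lists do not separate these. The untreated groups were germinal vesicle (GV) oocytes taken before maturation, in vitro produced 2-cell embryos collected 30 to 32 h after insemination, 4-cell embryos at day 2, 8-cell embryos at day 3 and morula at day 5. They further included inner cell masses (ICM), isolated from blastocysts by immunosurgery, and embryonic stem cells (ESC) derived from ICM and grown on mouse feeder cells under Wnt-pathway inhibition. Transcription blocked embryos (TBE) were 2-cell, 4-cell and 8-cell embryos of the same ages whose medium held α-amanitin at 50 µg/ml from the first day of culture. The labels give no genotype or strain that differs between groups.

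In cattle the embryo starts with maternal RNA and protein, gives off little transcription of its own in the first cleavages, and starts major embryonic genome activation (EGA) around the 8-cell stage. α-Amanitin binds RNA polymerase II and stops elongation, so that TBE divide on maternal stores and do not go through EGA. Open sites in promoters and enhancers are where transcription factors bind, and a site that opens before EGA and stays open is of interest as chromatin that maternal factors could set up. The ICM is the pluripotent cell group of the blastocyst, and ESC are its cultured counterpart.

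Depth and length of the lists differed widely between libraries. Lists held from 1002 to 207459 peaks in untreated libraries and from 925 to 247513 in TBE libraries. The background level of a library, which is the pileup expected by chance under its tags and rises with the number of tags, could be solved in 28 of 30 libraries. It was 0.494, 0.453 and 0.223 tags in 4-cell replicates 1, 2 and 3 and 0.324, 0.134 and 0.157 tags in those of 4-cell TBE. By this level 2 of the 4-cell TBE libraries had few tags. The level was 1.31, 0.806 and 0.808 in 8-cell libraries and 1.24, 3.82 and 0.347 in 8-cell TBE libraries, with TBE replicate 2 the deepest of all libraries solved. The length of a list did not follow this level alone. ESC replicate 1 had 39333 peaks at a level of 0.175, and 2-cell replicate 3 had 6440 at 0.718. What set the length of a list was not tested. Shares of sites with a peak therefore carry the depth and the list length of their library, and equal numbers of top peaks per library are given beside them below.

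Most 4-cell regions were not new. Of the 15117 regions, 11487 (76.0%) overlapped a GV region, 649 (4.29%) a 2-cell region, and 3599 (23.8%) neither. Of these 3599 new regions 1745 (48.5%) overlapped both an 8-cell and a morula region and are the maintained sites, 259 (7.20%) overlapped an 8-cell region alone and 457 (12.7%) a morula region alone. The remaining 1138 (31.6%) overlapped neither and are called transient sites. For comparison, 9999 4-cell regions met the whole rule except that they did overlap a GV region, and are called oocyte-shared sites. A further set of 60757 new 8-cell sites were 8-cell regions with no GV, 2-cell or 4-cell region and with a morula region.

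Among the maintained sites, peaks were found in 94.5%, 79.0% and 44.1% in 4-cell replicates 1, 2 and 3. In 8-cell libraries these shares were 94.4%, 86.6% and 94.6%, and in morula they were 88.3%, 99.2% and 96.4%. The 4-cell shares followed the order of the background levels, while every 8-cell and morula library, which the rule used, listed 86.6% or more of the sites. In the 4-cell libraries 308 sites (17.7%) had a peak in all 3 replicates and 1437 (82.3%) in 2 of them, of which 975 (55.9% of all sites) were in replicates 1 and 2. In 8-cell embryos 1358 sites (77.8%) and in morula 1485 (85.1%) were found in all 3 replicates. The rule admitted some weakly supported ones, since 40 sites had a peak in a single 8-cell library and 21 in a single morula library; in these cases the other replicates' peaks lay elsewhere in the merged region. With replicate 1 left out of each stage 532 regions met the rule, and with replicate 2 left out 822.

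Absence before the 4-cell stage was less complete than the rule reads. In GV replicates 1, 2 and 3, 18.2%, 11.6% and 13.9% of maintained sites overlapped a peak. A peak in exactly 1 GV library was found for 703 sites (40.3%), and 30 (1.72%) had peaks in 2. In 2-cell replicates 1, 2 and 3 the shares were 0.745%, 0.802% and 6.53%, and 141 sites (8.08%) had a peak in 1 of these libraries. In all 808 sites (46.3%) had a peak in at least 1 GV or 2-cell library and 937 (53.7%) in none. Any GV peak was found in 42.0% of maintained sites, in 20.5% of transient sites and in 9.74% of new 8-cell sites. The 2-cell lists were short and covered 7.67% ± 9.99 (SD, n = 3) of the oocyte-shared sites, so that a site missing from them was not shown to be closed at that stage.

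**Figure D1:**
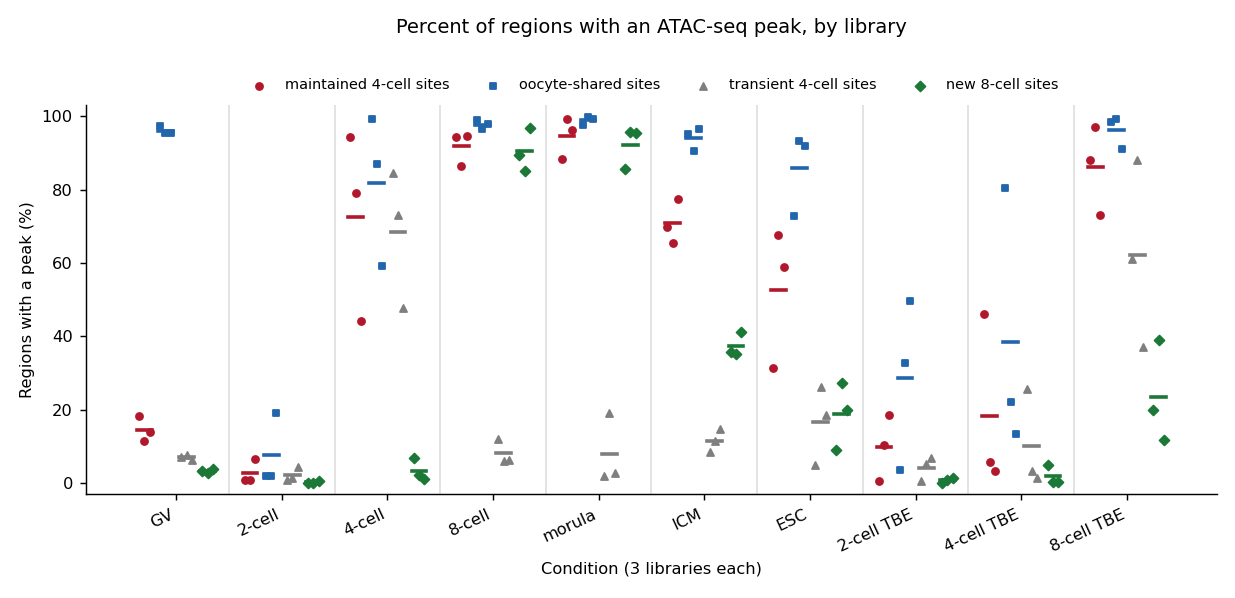
Percent of regions with a peak (y axis) in each of 30 libraries, by condition (x axis), for 4 sets of regions; points are libraries, replicates 1 to 3 from left to right, and bars are means. Maintained 4-cell sites lie between 73.1% and 97.0% in 8-cell TBE and between 31.3% and 77.4% in ICM and ESC, below oocyte-shared sites and above transient and new 8-cell sites in each of these libraries; GV to morula values follow from the rule.

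Near the edges of the rule, the closest maintained site lay 61 bp from a GV region, and 44 sites (2.52%) lay within 1 kb of one. The median gap to a GV region was 23013 bp. On the other side of this edge, the oocyte-shared site with the smallest overlap shared 19 bp with a GV region, and 1 of the 9999 shared fewer than 50 bp. The smallest overlap of a maintained site was 7 bp with an 8-cell region and 19 bp with a morula region. Fewer than 50 bp were shared with an 8-cell region by 8 sites and with a morula region by 1 site, so that few members hung on a short overlap.

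Maintained sites were short and moderately enriched at the 4-cell stage. Their median length was 501 bp (quartiles 291 and 834 bp, range 200 to 2865 bp), beside 726 bp for oocyte-shared sites, 497 bp for transient sites and 670 bp for all 4-cell regions. Mean 4-cell fold enrichment, the tag pileup over the local background averaged over the libraries with a peak, had a median of 4.06 (quartiles 3.66 and 4.53, range 2.83 to 7.26). It was 4.51 for oocyte-shared and 3.73 for transient sites. These values come from the libraries that chose the sites.

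The 8-cell regions that overlapped the maintained sites had a median length of 775 bp and the morula regions of 704 bp. Those that overlapped oocyte-shared sites were longer, with medians of 1239 and 1074 bp, and regions picked by an overlap tend to be long. In 768 cases (44.0%) the site lay wholly inside an 8-cell region and in 884 (50.7%) inside a morula region. Median fold enrichment at the sites, over the libraries' own peaks there, was 4.13, 3.96 and 3.93 in 4-cell replicates 1, 2 and 3. It was 4.24, 4.27 and 4.81 in 8-cell libraries and 4.90, 5.49 and 5.35 in morula, so that each morula library lay above each 8-cell library. The same order held over all peaks of these libraries. Their medians were 3.84, 3.81 and 4.05 in 8-cell libraries and 4.25, 4.12 and 4.34 in morula. Fold enrichment depends on depth as well as on accessibility, and what set this order was not tested.

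Maintained sites were spread over the genome. They lay on all 29 autosomes, on the X chromosome (29 sites) and, for 18 sites, on unplaced scaffolds. As a share of the 4-cell regions of a chromosome they ranged on autosomes from 7.84% on chromosome 18 (54 of 689) to 16.6% on chromosome 4 (100 of 604), against 11.9% over all autosomes. The median distance from a site to the next was 868 kb, beside 104 kb for the more numerous oocyte-shared sites.

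The question put first to the libraries outside the rule was whether the sites were open without embryonic transcription. At the 8-cell stage they largely were, and so were 4-cell regions as a whole, somewhat more often. Peaks were found at 88.2%, 97.0% and 73.1% of the 1745 sites in 8-cell TBE replicates 1, 2 and 3. The mean was 86.1% ± 12.1 for maintained sites, 90.8% ± 8.16 for all 4-cell regions and 62.1% ± 25.5 for transient sites (SD, n = 3). A peak in all 3 TBE libraries was found for 1211 sites (69.4%), against 80.3% of all 4-cell regions. Only 31 sites (1.78%) had a peak in none, against 1.42% of all 4-cell regions. The lowest of the 3 values belonged to the library with the lowest background level and the highest to the library with the highest.

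Because untreated 8-cell libraries had chosen the sites, a fair control needed libraries that had not. Each untreated replicate was held out in turn, the 8-cell regions were taken from peaks shared by both others, the rest of the rule was kept, and the sites with a peak were counted in the held-out library and in each TBE library. Held-out 8-cell libraries had peaks at 93.6%, 85.7% and 94.3% of such sites (91.2% ± 4.82, SD, n = 3). The 8-cell TBE libraries, averaged over the 3 sets of sites, had peaks at 88.7%, 97.2% and 74.2% (86.7% ± 11.6, SD, n = 3). The groups overlapped, and the difference of −4.51 percentage points was smaller than the spread between TBE libraries (exact two-sided permutation test, p = 0.70). Without TBE replicate 3 the difference was +1.73 points. With 3 libraries against 3 this exact test cannot go below p = 0.10, here and for the other stages.

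Cutting every 8-cell and 8-cell TBE list to its top 50090 peaks by −log10 p, the length of the shortest of them, turned the direction. TBE libraries then had peaks at 79.8%, 74.9% and 74.2% of the sites (76.3% ± 3.02) and held-out control libraries at 60.3%, 51.1% and 58.6% (56.6% ± 4.91). Every TBE value lay above every control value, a difference of +19.6 points and the smallest p that the exact permutation test allows (p = 0.10). A fixed number of top peaks is a rank within the list, and the sites ranked higher in 8-cell TBE lists than in 8-cell control lists. All 4-cell regions were not cut in this way, so this order may not be particular to the maintained sites. With all peaks, all 4-cell regions were covered at 90.8% ± 8.16 in 8-cell TBE and 83.3% ± 2.02 in untreated 8-cell libraries (SD, n = 3 each). What set the order was not tested. A minimum fold enrichment of 3 for every peak gave −18.6 points (p = 0.10, exact permutation test). TBE replicate 2, the deepest library, had a median fold enrichment of 3.12 at the sites, close to that minimum, beside 4.15 and 4.45 in replicates 1 and 3. The sign of the 8-cell difference thus depended on how peaks were counted.

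**Figure D2:**
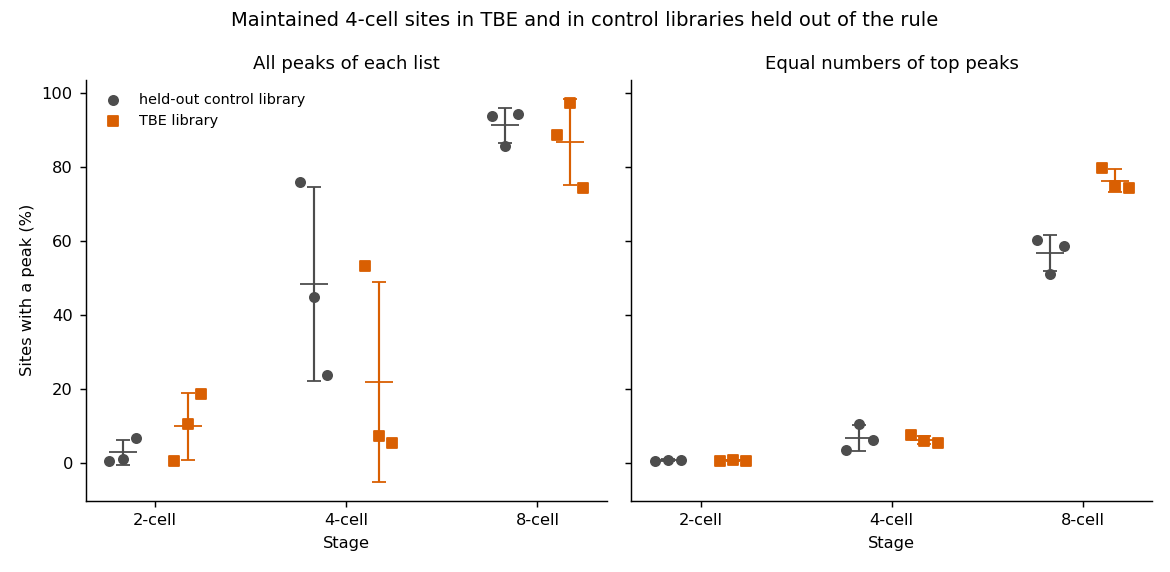
Percent of maintained sites with a peak (y axis) in TBE libraries and in untreated libraries held out of the rule, by stage (x axis), for all peaks (left) and for equal numbers of top peaks (right); points are libraries, and bars are mean ± SD (n = 3). At the 8-cell stage the groups overlap with all peaks (86.7% in TBE and 91.2% in control) and separate with equal numbers (76.3% and 56.6%), while at the 4-cell stage the wide spread with all peaks (22.1% and 48.3%) closes with equal numbers (6.30% and 6.81%).

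At the 4-cell stage, where the sites first counted as regions, the block could not be read with the same certainty. In 4-cell TBE replicates 1, 2 and 3, 46.0%, 5.62% and 3.27% of the 1745 sites had a peak, and the low values belonged to the libraries with 4166 and 3094 peaks. A peak in no 4-cell TBE library was found for 900 sites (51.6%), against 28.6% of all 4-cell regions, and a peak in all 3 for 13 (0.745%), against 6.44%. Against held-out 4-cell controls, TBE had peaks at 53.2%, 7.49% and 5.46% of sites (22.1% ± 27.0, SD, n = 3) and controls at 75.9%, 45.0% and 23.9% (48.3% ± 26.1). The groups overlapped, and the difference of −26.2 points did not exceed the spread (exact two-sided permutation test, p = 0.30). It was −41.8 points without 4-cell TBE replicate 1 and −12.4 points without 4-cell control replicate 1. TBE replicate 1 lay above control replicates 2 and 3. Each control was read on its own held-out set, and TBE values were averages over the 3 sets. The held-out sets were of 398, 666 and 1281 sites, since 4-cell replicates 1 and 2 carried most members.

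With the top 3094 peaks of each 4-cell list, TBE libraries had peaks at 6.30% ± 1.11 and held-out controls at 6.81% ± 3.51 of the sites. This difference of −0.510 points was well inside the spread (exact permutation test, p = 0.80). So few peaks covered few of the sites in either group, and neither count of peaks showed a difference at the 4-cell stage that 3 libraries against 3 could resolve.

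At the 2-cell stage TBE replicates 1, 2 and 3 had peaks at 0.630%, 10.5% and 18.6% of the 1745 sites. Held-out 2-cell controls had peaks at 0.745%, 1.14% and 6.91% of sites (2.93% ± 3.45, SD, n = 3) and 2-cell TBE at 0.705%, 10.6% and 18.7% (10.0% ± 9.02). The difference of +7.09 points lay within the spread (exact permutation test, p = 0.40) and was −0.0887 points with the top 925 peaks of each list (p = 0.60, exact permutation test). It was 2.75 points without 2-cell TBE replicate 3 and 11.7 points without 2-cell TBE replicate 1.

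The difference between TBE and control was then compared between stages, with all 400 relabellings of libraries within both stages and 3 comparisons. The 2-cell difference was higher than the 4-cell difference by 33.3 points (exact permutation test, p = 0.155, adjusted p = 0.338) and higher than the 8-cell difference by 11.6 points (exact permutation test, p = 0.225, adjusted p = 0.338). The 4-cell difference was lower than the 8-cell difference (−21.7 points; exact permutation test, p = 0.395, adjusted p = 0.395). None of the 3 passed the threshold of 0.05.

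Site by site, most sites without a 4-cell TBE peak had peaks in 8-cell TBE. They had them in all 3 libraries less often than sites with 1 4-cell TBE peak did. Of the 900 sites with a peak in no 4-cell TBE library, 542 had a peak in all 3 8-cell TBE libraries, 233 in 2, 99 in 1 and 26 in none. Of the 745 sites with a peak in 1 4-cell TBE library, 580 had one in all 3 8-cell TBE libraries and 5 in none. All 13 sites with peaks in the 3 4-cell TBE libraries had peaks in at least 2 of the 8-cell TBE libraries. The 4-cell TBE and 8-cell TBE lists were not crossed in this way for all 4-cell regions. Sites found in all 3 untreated 4-cell libraries and in no 4-cell TBE library numbered 91 (5.21%, against 3.44% of all 4-cell regions).

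A small group was listed in all 3 untreated 8-cell libraries and in no 8-cell TBE library. It held 20 sites (1.15%, against 0.311% of all 4-cell regions), of which 5 had a peak in a 4-cell TBE library. An ICM region was found for 15 of the 20 and an ESC region for 8, beside 73.6% and 56.4% of all maintained sites. Their mean 8-cell fold enrichment had a median of 4.81, with a range from 3.37 to 7.96, beside a median of 4.39 for all maintained sites. The 3 with the highest values were picked after the values had been seen. The first, on chromosome 25 (ARS-UCD1.2 chr25:24684042-24684314), had an 8-cell fold enrichment of 8.53, 6.90 and 8.46 in replicates 1, 2 and 3 and a morula fold enrichment of 4.87, 8.10 and 7.93, with no peak in any TBE, ICM or ESC library. The second (chr19:39676505-39676738) reached 5.50, 6.55 and 5.85 in 8-cell embryos, 9.41, 8.36 and 9.40 in ICM and 5.66, 8.65 and 6.29 in ESC. The third (chr20:20292933-20293152) reached 6.55, 4.08 and 7.03 in 8-cell embryos, 5.84, 3.18 and 7.97 in ICM and 7.96, 12.4 and 8.08 in ESC, and had 1 TBE peak, of 3.98, in 4-cell TBE replicate 1. The sites on chromosomes 19 and 20 were thus listed in every ICM and ESC library and the site on chromosome 25 in none.

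Maintained sites were next set beside the other sets within the same libraries, where depth is shared. Percentages with a peak were compared in the 3 4-cell TBE and 3 8-cell TBE libraries together, and in the 3 ICM and 3 ESC libraries together, with exact two-sided sign-flip permutation tests over libraries. There were 6 such comparisons, and p-values were adjusted over them by the Benjamini-Hochberg method. The smallest p that 6 libraries allow is 0.031, and all 6 comparisons reached it, so that raw and adjusted values were equal. In 3 of them the p is no support, because the rule itself set the sets apart in untreated embryos of the same or the neighbouring stage: transient sites were defined by the lack of 8-cell and morula regions, and new 8-cell sites by the lack of a 4-cell region. The differences from transient sites, and that from new 8-cell sites in TBE, are therefore given as a description. In the remaining comparisons the rule also set the sets apart, by a GV region or by the lack of a 4-cell region. Oocyte-shared sites (median 726 bp) and new 8-cell sites (median 625 bp) were longer than maintained sites (501 bp) as well, and length was not matched. The p of these comparisons speaks only for the same direction in all libraries.

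In TBE libraries maintained sites had peaks less often than oocyte-shared sites, by 15.3 points on average (difference −15.3 ± 10.9 points, SD over 6 libraries; lower in 6 of 6; exact permutation test, p = 0.031, adjusted p = 0.031). In 8-cell TBE replicates 1, 2 and 3 oocyte-shared sites were covered at 98.6%, 99.4% and 91.1%, and in 4-cell TBE replicates at 80.5%, 22.0% and 13.3%. Maintained sites had peaks more often than transient sites (+16.0 ± 14.0 points; higher in 6 of 6). Transient sites had no 8-cell region by definition and were covered at 11.9%, 6.06% and 6.33% in untreated 8-cell libraries, but at 61.0%, 88.2% and 37.2% in 8-cell TBE. This difference depended on the peak threshold. With peaks of −log10 q of at least 3 it was +7.20 points and lower in 2 of 6 libraries.

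New 8-cell sites, which first counted as regions a division later, were largely absent from TBE. They had peaks at 19.8%, 38.9% and 11.8% in 8-cell TBE replicates 1, 2 and 3, where maintained sites had 88.2%, 97.0% and 73.1%. Over the 6 TBE libraries maintained sites were higher by 39.5 ± 28.8 points (higher in 6 of 6). The differences ran from 3.07 points in the shallow 4-cell TBE libraries to 68.4 points in 8-cell TBE. In untreated 8-cell libraries, which chose both sets, the new 8-cell sites were covered at 89.5%, 85.2% and 96.9%, close to the maintained sites.

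Sites with a stronger 4-cell enrichment were covered more often outside the rule. The 1745 sites were split into 4 bins of 436 or 437 sites by mean 4-cell fold enrichment, from 2.83 to 3.66 in the lowest to 4.53 to 7.26 in the highest bin. In 8-cell TBE coverage was 82.6% ± 16.2 (SD, n = 3) in the lowest bin and 90.9% ± 6.99 in the highest, and the step was widest in the shallowest library, TBE replicate 3, from 64.7% to 83.8%. In 4-cell TBE replicate 1 it went from 32.6% to 62.0%. In ICM it went from 65.9% ± 8.05 to 76.9% ± 5.72 and in ESC from 44.5% ± 21.0 to 60.1% ± 16.2, and each of the 15 libraries was higher in the highest than in the lowest bin.

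**Figure D3:**
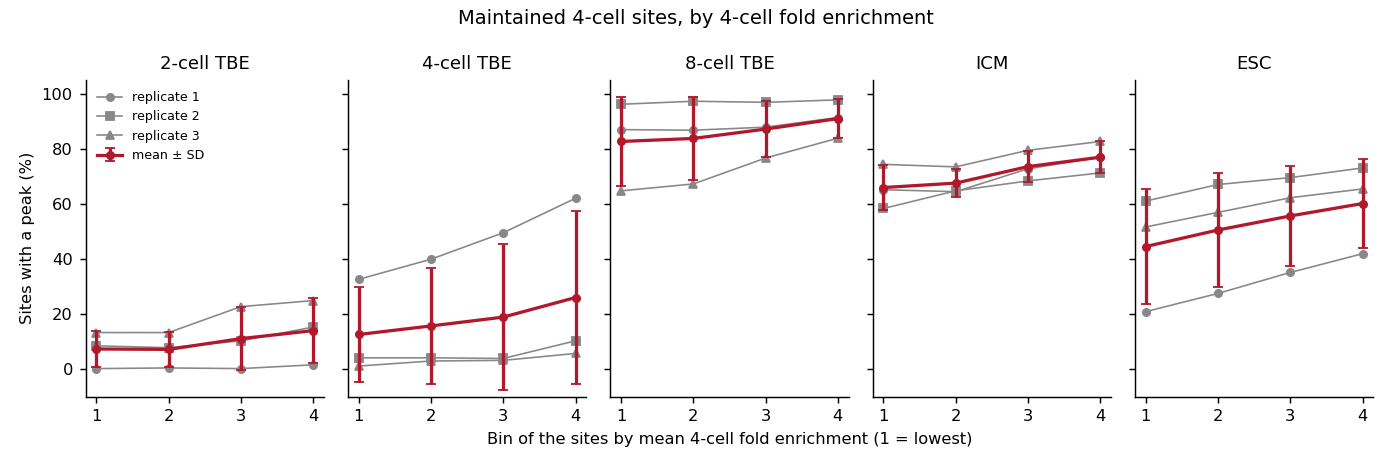
Percent of maintained sites with a peak (y axis) in libraries outside the rule, by bin of mean 4-cell fold enrichment (x axis, 1 lowest); grey lines are replicates and red points are mean ± SD (n = 3). In 8-cell TBE the mean goes from 82.6% in the lowest to 90.9% in the highest bin, in ICM from 65.9% to 76.9% and in ESC from 44.5% to 60.1%.

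Because oocyte-shared sites had a higher and transient sites a lower 4-cell fold enrichment than maintained sites, these comparisons were repeated within the 4 bins and averaged. In TBE the difference was −12.0 points from oocyte-shared sites and +13.7 points from transient sites. In ICM and ESC it was −25.7 and +47.8 points. Both differences from oocyte-shared sites kept the smallest p (exact permutation test, p = 0.031), which again speaks only for the same direction in all 6 libraries. The bins came from 4-cell libraries that chose the sites, and they matched strength only coarsely. The highest bin held 437 maintained and 4858 oocyte-shared sites. The bins did not match the length of the sites. In the highest bin, 8-cell TBE replicate 3 had peaks at 83.8% of maintained and 94.6% of oocyte-shared sites.

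After the morula stage most maintained sites were still listed in ICM or ESC. Peaks were found in ICM replicates 1, 2 and 3 at 69.8%, 65.6% and 77.4% of the sites and in ESC replicates at 31.3%, 67.6% and 59.0%. An ICM region overlapped 1285 sites (73.6%, against 81.1% of all 4-cell regions) and an ESC region 985 sites (56.4%, against 75.6%). Both were found for 850 sites (48.7%), an ICM region alone for 435 (24.9%), an ESC region alone for 135 (7.74%) and neither for 325 (18.6%). Sites kept in ICM alone thus outnumbered those kept in ESC alone. The same order held for oocyte-shared sites (6.05% against 1.53%) and new 8-cell sites (24.9% against 6.20%). Transient sites went the other way (5.80% against 11.9%).

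The ICM mean was higher than the ESC mean by 18.3 points, 70.9% ± 5.99 against 52.7% ± 19.0 (SD, n = 3 each; exact two-sided permutation test, p = 0.20). The groups overlapped, and ESC replicate 1, with 39333 peaks and the lowest background level of both groups (0.175), gave the low end. Without it the difference was 7.62 points. All 4-cell regions were also covered more in ICM (79.7% ± 3.47) than in ESC (71.4% ± 12.8, SD, n = 3 each). With the top 39333 peaks of each list, ICM replicates had peaks at 42.5%, 36.4% and 36.6% of the sites and ESC replicates at 31.3%, 32.1% and 33.9%. The groups then did not overlap, with a difference of 6.06 points and the smallest p the design allows (exact permutation test, p = 0.10).

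**Figure D4:**
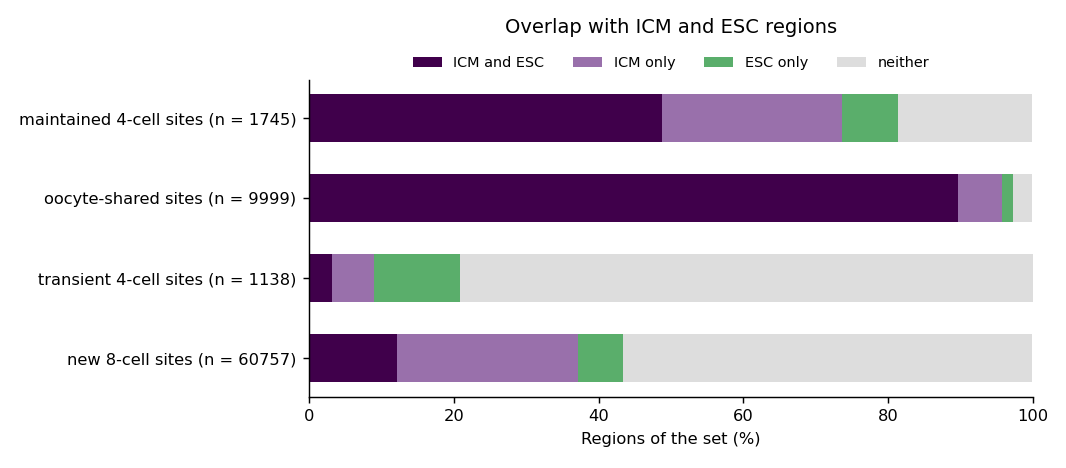
Percent of regions (x axis) that overlap an ICM region, an ESC region, both or neither, for the 4 sets of regions (y axis, n in brackets). Both cell types kept 48.7% of maintained sites, 89.7% of oocyte-shared sites, 3.16% of transient sites and 12.2% of new 8-cell sites.

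In ICM and ESC libraries maintained sites again lay between the other sets. They had peaks less often than oocyte-shared sites (−28.3 ± 7.75 points, SD over 6 libraries; lower in 6 of 6; exact permutation test, p = 0.031, adjusted p = 0.031). They had peaks more often than transient sites (+47.8 ± 14.1 points, a description) and than new 8-cell sites (+33.7 ± 6.59 points; exact permutation test, p = 0.031, adjusted p = 0.031), both higher in 6 of 6 libraries. The rule itself had set new 8-cell sites apart from maintained sites, and neither strength nor length was matched between them. That p therefore speaks only for the same direction in all 6 libraries and is no support beyond it. Overlap with neither an ICM nor an ESC region was seen for 18.6% of maintained, 2.67% of oocyte-shared, 79.2% of transient and 56.6% of new 8-cell sites. New 8-cell sites and maintained sites had the same share kept in ICM alone (24.9% each), and the gap between them was in the share kept in both.

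Sites kept in both cell types had a slightly higher median 4-cell fold enrichment and a shorter median length than the other classes. Median 4-cell fold enrichment was 4.15 for the 850 sites kept in both cell types, 3.98 for those in ICM alone, 3.94 in ESC alone and 3.93 for the 325 in neither. Median length was 460, 535, 512 and 527 bp in the same order. A peak in all 3 8-cell TBE libraries was found for 72.6%, 69.9%, 60.7% and 64.0% of them. A peak in some GV or 2-cell library was found for 53.4% of sites kept in both and 35.4% of those kept in neither. These shares are a description, since the sites of a class are not replicates.

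Leaving out every maintained site with a peak in any GV or 2-cell library kept 937 sites. The comparison sets were not filtered in this way. In TBE libraries these differed from oocyte-shared sites by −17.6 points, from transient sites by +13.8 and from new 8-cell sites by +37.3. In ICM and ESC libraries the differences were −32.0, +44.0 and +30.0 points. Those from oocyte-shared sites, and that from new 8-cell sites in ICM and ESC, had the smallest p (exact permutation test, p = 0.031). Oocyte-shared sites were defined by a GV region, so the filter set those sets further apart. New 8-cell sites had been set apart by the rule as well. In each of these comparisons this p is no added support. At the 8-cell stage TBE differed from held-out controls by −6.50 points (exact permutation test, p = 0.70). The direction of these 7 differences was thus the same without the sites that had an early peak.

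Of the 1745 sites, 242 (13.9%) had a peak in all 3 4-cell, all 3 8-cell and all 3 morula libraries, and 109 (6.25%) of them had none in a GV or 2-cell library. The 10 of these 109 with the highest mean 4-cell fold enrichment are given by rank, with coordinates on ARS-UCD1.2. Values are fold enrichments in replicates 1, 2 and 3. By the way they were picked, all 10 lacked a peak in GV and 2-cell libraries and had high 4-cell values.

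Site 1 (chr24:27995837-27996175) had 8.11, 4.82 and 5.48 in 4-cell embryos, 8-cell values of 5.93, 6.55 and 7.99, and morula values of 4.75, 7.34 and 9.09. In 8-cell TBE it reached 10.0, 6.43 and 7.48, in 4-cell TBE it had 1 peak of 3.97, and in ICM it had peaks of 4.69 and 3.20 in replicates 1 and 2. No ESC library had a peak there. The 8-cell TBE values overlapped those of the 8-cell controls, and the site was absent from the lists of cultured stem cells.

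Site 2 (chr18:61589794-61590162) had 6.60, 6.26 and 5.20 in 4-cell embryos, weaker 8-cell values of 4.37, 4.43 and 3.57, and morula values of 7.12, 6.48 and 6.00. In 8-cell TBE it had 4.54, 4.39 and 5.59, which overlapped the 8-cell controls. Site 3 (chr4:114741535-114741816) had 7.44, 4.49 and 5.99 in 4-cell embryos and no peak in 4-cell TBE. In 8-cell TBE it had 8.11, 6.12 and 8.82, all above the 4.84, 4.09 and 4.30 of the 8-cell controls, and in ESC replicates 2 and 3 it had 7.94 and 6.67.

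Site 4 (chr20:62645441-62645741) went the other way. It had 6.50, 6.44 and 4.80 in 4-cell embryos, similar 8-cell values of 4.90, 6.43 and 7.07, and the highest values, 9.05, 11.2 and 7.93, in morula. In each of the TBE stages a single library had a peak, with 4.82 in 2-cell TBE, 3.79 in 4-cell TBE and 3.85 in 8-cell TBE. It was the one site of the 10 without a peak in all 3 8-cell TBE libraries.

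Site 5 (chr18:60889792-60890167) had 6.29, 6.82 and 4.20 in 4-cell embryos and 3.47, 3.26 and 4.27 in 8-cell embryos, which overlapped. In 8-cell TBE it had 5.85, 5.23 and 8.01, above all 3 8-cell controls, and in ESC 6.35, 5.30 and 7.06, above the 3.94, 4.76 and 2.94 of ICM. Site 6 (chr10:97016949-97017302) had 6.01, 5.82 and 5.25 in 4-cell embryos and 5.30, 5.28 and 4.12 in 8-cell TBE, and kept 1 peak in ICM (4.69) and 1 in ESC (5.61). Site 7 (chr19:62588007-62588324) had 5.87, 7.08 and 3.90 in 4-cell embryos, 6.88, 10.4 and 10.0 in morula and 7.26, 6.05 and 10.6 in 8-cell TBE. Sites 5, 6 and 7 were thus listed in all 8-cell TBE libraries, although site 6 was seldom listed after morula.

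Site 8 (chr17:7555027-7555832) was the only one of the 10 with a peak in every 4-cell TBE library (4.61, 4.18 and 4.71), beside 5.26, 5.88 and 5.56 in 4-cell controls. At the 8-cell stage it had 8.19, 9.56 and 11.8 in controls and 5.36, 3.99 and 5.63 in TBE, which did not overlap. Site 9 (chr11:83301626-83302122) showed the same order, with 7.13, 9.08 and 11.1 in 8-cell controls and 5.44, 2.43 and 3.90 in 8-cell TBE. Both were therefore listed in every 8-cell TBE library, at a lower fold enrichment than in any control, with the lowest value of each in the deepest library, TBE replicate 2. Site 10 (chr18:56072632-56073008) had 4.56, 5.55 and 5.85 in 4-cell embryos, 5.72, 4.91 and 5.68 at the 8-cell stage and 4.38, 3.12 and 6.62 in 8-cell TBE, where the groups overlapped.

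**Figure D5:**
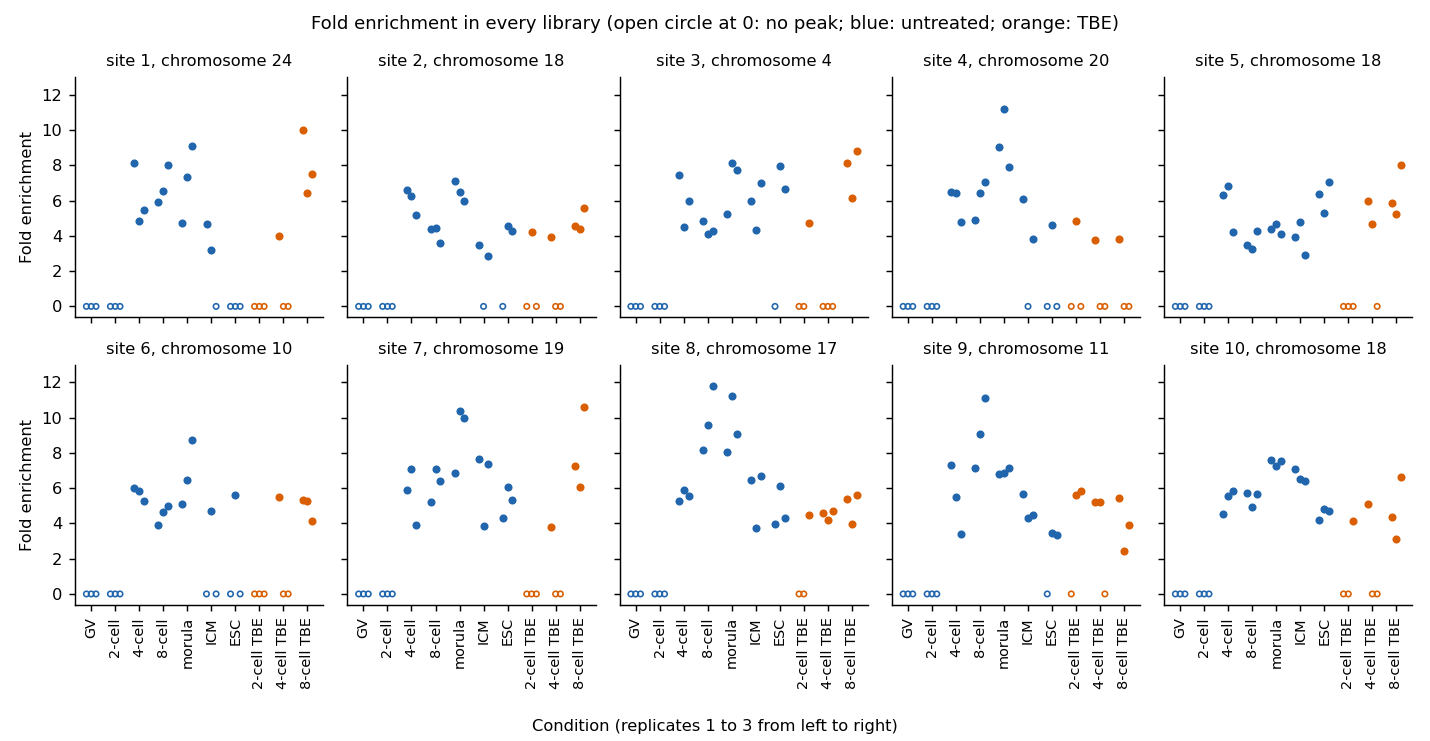
Fold enrichment (y axis) of the 10 strongest fully supported maintained sites in every library, by condition (x axis), with replicates 1 to 3 from left to right; open circles at 0 stand for no peak, blue for untreated and orange for TBE. Of the 10 sites, site 4 alone lacks a peak in 2 of the 8-cell TBE libraries, and sites 8 and 9 are lower in 8-cell TBE than in 8-cell embryos, while sites 3 and 5 are higher.

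Of the 109 sites, 3 had a peak in all 3 4-cell TBE libraries, beside 0.745% of all maintained sites and 6.44% of all 4-cell regions. They were site 8, a site on chromosome 22 (chr22:10812942-10813513) with 5.03, 4.58 and 4.96 in 4-cell TBE against 5.60, 5.33 and 4.75 in 4-cell controls, and one on chromosome 7 (chr7:101510641-101511811) with 5.04, 4.27 and 3.28 against 5.21, 4.04 and 4.36. In both the groups overlapped. None of the 109, a count of 0, lacked a peak in all 4-cell and 8-cell TBE libraries.

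A peak in all 6 ICM and ESC libraries was found for 365 maintained sites (20.9%, against 51.8% of all 4-cell regions) and a peak in none of the 6 for 154 (8.83%, against 8.16%). Among the 109 these were 26 sites, led by sites 5, 7 and 8, and 9 sites. The strongest of the latter (chr10:54578559-54578884) had 4-cell values of 5.45, 4.29 and 5.27 and higher morula values of 8.00, 9.09 and 7.36, and was then absent from ICM and ESC. The next (chr10:20333763-20334319) had 4-cell values of 5.84, 4.91 and 3.68 and morula values of 3.13, 3.33 and 3.96. The third (chr9:67313833-67314120) had 4-cell values of 4.87, 4.71 and 3.94 and morula values of 5.96, 5.89 and 4.46, with 5.05, 4.90 and 5.25 in 8-cell TBE. Loss after morula was thus seen both for a strong and for a weak morula peak.

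The 3 longest maintained sites measured 2865 bp (chr13:3982257-3985121), 2612 bp (chr1:136001668-136004279) and 2590 bp (chr22:2113650-2116239), and each had a peak in at least 1 GV library. Fold enrichment in 8-cell embryos was 2.80, 3.01 and 3.19 for the longest, 4.35, 4.07 and 4.45 for the one on chromosome 1 and 2.63, 2.55 and 3.10 for the one on chromosome 22. All 3 had a peak in every 8-cell TBE and ICM library, and the one on chromosome 1 lacked only ESC replicate 1 among the ICM and ESC lists.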

How the data were processed

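The 30 peak lists stand for 10 conditions with 3 replicates each. Reads had been trimmed, mapped to ARS-UCD1.2, cleared of duplicates and of mitochondrial and poorly mapped reads, and turned into broad peaks by the authors (MACS2, q cutoff 0.05). The submitters' processing notes name BWA 0.7.17, MACS2 2.1.1, SAMtools 1.7 and cutadapt 0.4.0. The deposited fold enrichment is a ratio, the mean tag pileup of a peak over the local background of its library. The deposited −log10 p and −log10 q were computed by the authors from the same pileup. Read numbers per list are not given in the sources used here, so the background level was solved from fold enrichment and −log10 p of peaks up to 400 bp with a whole-number pileup (tolerance 0.0001, at least 3 peaks; in 2 libraries an upper limit was taken instead).

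Sites were read with Python 3.11.15, numpy 2.4.6, pandas 2.3.3 and scipy 1.17.1, and plots were drawn with matplotlib 3.10.9. A site counted as covered in a library where at least 1 bp of a peak overlapped it, and its fold enrichment there was the highest of those peaks. Code for overlaps was checked in 200 simulated trials with 0 mismatches, and 4 of 4 simulated background levels were recovered. Held-out, permutation and sign-flip tests were two-sided and exact at a threshold of 0.05; the sign-flip test treats the 6 libraries as independent. Samples were grouped by their titles. Named sites were, by rule, the 10 with the highest mean 4-cell fold enrichment among those in all 9 4-cell, 8-cell and morula libraries and in no GV or 2-cell library; the first 3 of these in all 4-cell TBE libraries, in no 4-cell or 8-cell TBE library, in all 6 or in none of the ICM and ESC libraries; and the 3 longest members. The members, comparison sets and rules were chosen with earlier results of these data known. Embryos of a collection were divided between control and TBE culture, but no source used here says that a replicate number marks a collection, so the numbers were used as a block only as an alternative. Differences between TBE and control were compared between stages by relabelling libraries within stages, a test chosen after results had been seen. No genome or annotation of ARS-UCD1.2 was used here, so genic shares, genes near the sites, cell type markers, motifs and sequences were not analysed here.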

Additional observations from a re-analysis of the deposited data

How the results depend on the processing

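The number of maintained sites depended on how regions were defined. It was 447 with peaks of −log10 q of at least 3, 7405 with regions from any replicate and 450 with regions from all 3, and 532, 822 and 1452 without replicates 1, 2 and 3 of each stage (532 to 1452). It was 937 without sites that had a peak in any GV or 2-cell library, an alternative chosen after seeing the data. The 8-cell difference between TBE and held-out control was −9.74 to 1.73 points with 1 library left out, reversing to 1.73 without TBE replicate 3, and reversed to 19.6 points with equal numbers of top peaks, and the 2-cell difference to −0.0887 points with equal numbers; what set these signs was not tested. The 6 comparisons between sets kept their direction without any 1 library, where 5 libraries allow no p below 0.0625 (exact permutation test): −17.9 to −11.5 and −30.1 to −25.7 points against oocyte-shared sites in TBE and in ICM and ESC, 12.1 to 18.9 and 44.8 to 52.0 against transient sites, and 33.7 to 46.8 and 32.4 to 36.0 against new 8-cell sites. Against transient sites in TBE, peaks of −log10 q of at least 3 gave 7.20 points. The 4-cell difference was −41.8 to −12.4, the 2-cell difference 2.75 to 11.7 and the difference of ICM from ESC 7.62 to 25.8 points with 1 library left out; these designs cannot reach 0.05, so their p says nothing of stability. With a replicate block the exact permutation p was 0.500, 0.250 and 0.750 for the 2-cell, 4-cell and 8-cell differences, where 0.250 is the smallest that 3 pairs allow; same-numbered libraries correlated at −0.193 to 0.121, so the numbers were not taken as a pairing. The 2-cell and 4-cell lists are short, which limits how many sites they can cover.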
